A study of Mus musculus with 10 samples.

Results

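The respiratory chain is built from subunits of 2 genomes, and its genes were followed here in the corneal endothelium of mice without Slc4a11. The members were all protein-coding genes whose mouse symbol belongs to the subunit families of complexes I to V (Ndufa, Ndufb, Ndufc, Ndufs, Ndufv, Sdha to Sdhd, Uqcr, Cyc1, Cox4 to Cox8, Atp5), cytochrome c (Cycs), and the mitochondrial families mt-Nd, mt-Cytb, mt-Co and mt-Atp. This rule found 100 of the 55450 genes in the deposited count table, 87 of them nuclear and 13 mitochondrial. Assembly factors and Ndufa4l2 were left out of the members by the rule. Messenger RNA was sequenced from peelings of Slc4a11-/- (KO) mice and of Slc4a11+/+ (WT) mice, all C57BL/6 and 12 weeks old. There were 5 libraries of each genotype, and each library pooled 6 peelings from 3 animals. The labels name no treatment, and how the Slc4a11 allele was made is left unsaid by them. The comparison asks how loss of this membrane transporter, which is mutated in human congenital endothelial dystrophies, changes gene expression in the cell layer where it acts.

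Complexes I to IV carry electrons from NADH and succinate to oxygen and pump protons across the inner mitochondrial membrane, and complex V uses the proton gradient to make ATP. Most subunits are nuclear genes whose proteins are imported, while a small set of core subunits is transcribed inside the mitochondrion as long polycistronic RNAs that are cut into single messages. The corneal endothelium pumps fluid out of the stroma to keep the cornea clear, and it is rich in mitochondria.

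The 10 libraries held 36026193 to 51008996 counts in genes, and 99.9% or more of the counts in each fell in the 17729 genes that passed the filter on low counts. Levels are given in CPM, the usual counts scaled to library size and here also by edgeR's TMM factors, as mean ± SD over the 5 libraries of a genotype. Slc4a11 itself was at 95.4 ± 16.2 CPM in KO libraries and 3791 ± 362 CPM in WT libraries, a log2 fold change of -5.31 (SE 0.14, edgeR adjusted p = 9.45e-10). The summed level of the corneal endothelial markers other than Slc4a11 was 32268 to 38799.5 CPM in KO libraries and 33749 to 37990.1 CPM in WT libraries, and the summed level of 12 stromal keratocyte markers was 71516 to 95323 CPM in KO libraries and 68062 to 104292 CPM in WT libraries. Of 13 tested endothelial markers, Car2 rose and Slc4a11 and Atp1b1 fell in edgeR. Of the 12 keratocyte markers, Kera and Ptgds fell and 0 rose (2 in DESeq2). Of 7 vessel markers, Plvap rose and Kdr fell, with a sum of 92.8 to 115 CPM in KO and 113 to 162 CPM in WT libraries. Of 5 muscle markers, Myh1 and Myh2 rose and Myh11 fell. Of all tested genes, 7.59% rose and 7.73% fell. Of 15 epithelial markers, 11 rose in edgeR (12 in DESeq2 and 2 in limma) and none was at 0, and their sum was 2241, 723, 63.2, 277 and 4095 CPM in KO 1 to KO 5, against 67.3 to 243 CPM in WT libraries. The part of these other cell types in the results below was not tested, except where a value without them is given. In pooled tissue, fewer cells of a type and less RNA per cell cannot be told apart.

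Of the 100 members, 96 were tested (83 nuclear, 13 mitochondrial). The nuclear members stayed close to their WT levels, and the mitochondrial messages lay lower on average in KO libraries but varied widely between pools. Among nuclear members, 5 of 83 rose (6.02%) and 1 fell (1.20%), while 7.59% of all tested genes rose and 7.73% fell at an edgeR adjusted p under 0.05. Among the 13 mitochondrial messages none rose and 1 fell (7.69%); at an unadjusted p under 0.05 in edgeR, 0 were higher and 7 were lower (15.4% of all tested genes were higher and 15.7% lower at that level), and DESeq2 and limma also called 0 higher and 1 lower. In KO libraries 5 nuclear members stood above every WT library and 1 stood below, 6.02% and 1.20% of those tested, against 5.88% and 6.16% of all tested genes. For nuclear members, the shares called and the shares without overlap were near or under the background in both directions. The share of mitochondrial messages that fell (7.69%) was near it too. The 7 of 13 lower at an unadjusted p under 0.05 in edgeR were a larger share than the 15.7% of all tested genes. That count was 6 in DESeq2, 3 in limma and 1 without WT 2 or without WT 3. It was 10 with no filter or with the epithelial covariate described below. The 13 are cut from shared RNAs and are not independent genes.

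The nuclear differences were small. The median log2 fold change over nuclear members was 0.07, against 0.00 over all tested genes. Of the 83, 66 had a positive fold change (79.5%, against 50.5% of all tested genes), and 88.0% lay within 0.2 of no change on the log2 scale, against 60.4% of all tested genes. The spread between libraries was like that of other genes: the median coefficient of variation of nuclear members was 7.30% in KO and 7.48% in WT libraries, and that of all 7033 tested genes at 20 CPM or more was 7.33% in KO and 7.24% in WT libraries. The 13 mitochondrial messages had a median coefficient of variation of 22.9% in KO and 50.9% in WT libraries, and a median log2 fold change of -0.72.

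**Figure D1:**
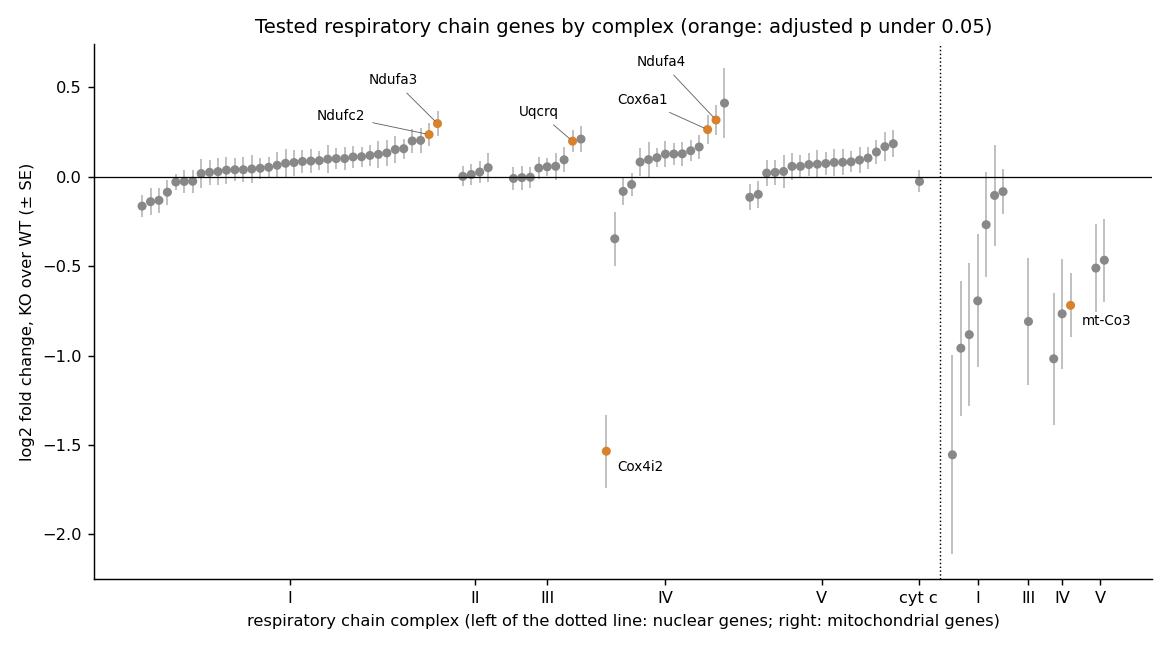
The log2 fold change of KO over WT (y axis, with its SE as a bar) is plotted for each of the 96 tested members, ordered by value within each complex (x axis), nuclear genes left and mitochondrial genes right of the dotted line. Orange points passed an edgeR adjusted p under 0.05: the 83 nuclear genes lie in a narrow band around a median of 0.07 with Cox4i2 far below it, and all 13 mitochondrial genes lie below 0 with wide error bars.

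Complex I oxidises NADH and feeds electrons to ubiquinone. All 36 of its nuclear subunits were tested, with 2 that rose, 0 that fell in edgeR (5 higher and 1 lower at unadjusted p under 0.05; 0 fell in DESeq2 and limma), and a median log2 fold change of 0.08. The 2 that rose are accessory subunits. Ndufa3 (chr7:3617373-3620327, plus strand), a small membrane subunit, had 53.8, 56.1, 52.2, 52.7 and 57.8 CPM in KO 1 to KO 5, against 51.2, 46.8, 38.7, 42.8 and 42.3 CPM in WT 1 to WT 5. All KO libraries lay above all WT libraries, KO 3 and WT 1 being the closest. Its mean was 1.23-fold higher, with a log2 fold change of 0.30 (SE 0.07, edgeR adjusted p = 0.016). Exons of Ndufa3 and of its neighbour Tfpt on the other strand share 4 bases.

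Ndufc2 (chr7:97400003-97407802, plus strand), a membrane-arm subunit, had 56.9, 57.4, 55.1, 56.1 and 63.9 CPM in KO 1 to KO 5, against 49.99, 49.1, 45.5, 54.7 and 46.4 CPM in WT 1 to WT 5. The groups again did not overlap, but KO 3 and WT 4 lay close together and KO 5 stood above the other KO libraries. The log2 fold change was 0.24 (SE 0.06, edgeR adjusted p = 0.0244). Close behind without passing the threshold were Ndufa1, another membrane-arm subunit, at 0.20 (edgeR adjusted p = 0.0706), and Ndufs4, a subunit next to the NADH-oxidising module, at 0.20 (edgeR adjusted p = 0.0737). The lowest nuclear value of the complex was that of Ndufa6, an accessory subunit of the LYR family, at 36.1 ± 2.63 CPM in KO and 40.5 ± 2.74 CPM in WT libraries (log2 fold change -0.16, edgeR adjusted p = 0.102). Core and accessory subunits thus shared a narrow range, from -0.16 to 0.30.

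The 5 nuclear genes that rose are shown by the promoter windows of the 4 that have an entry in the RefSeq table (build GRCm38.p6), since genes of this chain are known to share promoter motifs of a few activators. Each window runs from 250 bases before to 50 bases after the annotated start, 5′ to 3′ on the gene's own strand: Ndufa3 chr7:3617123-3617422 (plus), Ndufc2 chr7:97399753-97400052 (plus), Ndufa4 chr6:11907401-11907700 (minus) and Cox6a1 chr5:115348909-115349208 (minus). Capitals mark matches, on either strand, to the palindromic core motif of NRF1, the ETS core CCGGAAG, the YY1 word AAGATGGC, the hypoxia response cores ACGTG and GCGTG, or the estrogen-related receptor word TCAAGGTCA.
Ndufa3: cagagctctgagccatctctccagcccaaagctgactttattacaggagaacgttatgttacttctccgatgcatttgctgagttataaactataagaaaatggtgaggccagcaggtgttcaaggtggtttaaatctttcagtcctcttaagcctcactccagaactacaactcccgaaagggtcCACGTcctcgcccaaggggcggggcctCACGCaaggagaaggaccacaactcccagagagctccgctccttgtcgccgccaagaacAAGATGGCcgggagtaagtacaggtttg
Ndufc2: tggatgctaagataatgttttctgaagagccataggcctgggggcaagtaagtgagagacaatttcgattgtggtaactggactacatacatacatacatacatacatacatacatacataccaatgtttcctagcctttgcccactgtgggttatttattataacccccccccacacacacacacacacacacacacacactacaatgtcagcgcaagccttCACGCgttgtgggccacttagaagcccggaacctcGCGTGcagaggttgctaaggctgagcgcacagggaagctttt
Ndufa4: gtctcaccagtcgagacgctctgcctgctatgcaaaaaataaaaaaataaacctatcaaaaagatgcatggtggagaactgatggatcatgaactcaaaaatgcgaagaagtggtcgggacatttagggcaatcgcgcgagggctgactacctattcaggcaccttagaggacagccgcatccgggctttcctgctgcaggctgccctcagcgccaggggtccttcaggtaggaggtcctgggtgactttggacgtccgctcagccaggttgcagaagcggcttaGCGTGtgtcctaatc
Cox6a1: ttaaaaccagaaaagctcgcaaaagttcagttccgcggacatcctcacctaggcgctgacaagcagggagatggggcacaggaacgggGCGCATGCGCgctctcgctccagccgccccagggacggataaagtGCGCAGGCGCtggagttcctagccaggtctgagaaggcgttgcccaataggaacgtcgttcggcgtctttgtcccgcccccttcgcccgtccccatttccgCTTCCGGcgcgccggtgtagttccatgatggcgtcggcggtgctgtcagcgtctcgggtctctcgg
Cox6a1 held 2 NRF1 cores and 1 ETS core, Ndufa3 held the YY1 word and both hypoxia response cores, Ndufc2 held GCGTG at 2 places, and Ndufa4 held it once. No word was common to all 4 windows. The search covered 68 nuclear members with an entry (of 86 symbols): 17 of the 68 held the NRF1 core, against 5.19% of the 27025 genes in the table. Likewise 23.5% of the members held the ETS core, against 9.93% of genes, and 13.2% held the YY1 word, against 3.19%. The short cores ACGTG (17 of the 68 members, 21.8% of genes) and GCGTG (54.4% of members, 35.2% of genes) are common in any window of this length, and TCAAGGTCA was rare in both (2.94% of members, 0.466% of genes). Of all 32851 windows, 4.6% held the NRF1 core, 8.86% the ETS core, 2.75% the YY1 word, 19.6% ACGTG, 32.4% GCGTG and 0.423% TCAAGGTCA. The windows of the members were also richer in G and C, with a median of 57.3% against 52.7% over all windows. A match is a run of letters and not a measured binding site.

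Complex II links the citric acid cycle to the chain and has only nuclear subunits. None of its 4 genes was called in either direction by edgeR, DESeq2 or limma, nor at an unadjusted p under 0.05, and they gave the smallest differences of any complex, with log2 fold changes from 0.00 for the membrane anchor Sdhd to 0.05 for the iron-sulfur subunit Sdhb. Sdha, the flavoprotein that oxidises succinate, was at 231.7 ± 2.85 CPM in KO and 227.4 ± 17.9 CPM in WT libraries (0.03 on the log2 scale, edgeR adjusted p = 0.795).

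Complex III passes electrons from ubiquinol to cytochrome c, and 1 of its 9 nuclear subunits rose and 0 fell (2 higher and 0 lower at unadjusted p under 0.05 in edgeR; 0 fell in DESeq2 and limma). Uqcrq (chr11:53427922-53430831, minus strand), the small ubiquinone-binding subunit, had 49.2, 51.3, 53.4, 49.0 and 55.1 CPM in KO 1 to KO 5, against 48.6, 46.6, 39.9, 43.7 and 45.9 CPM in WT 1 to WT 5. The lowest KO library and the highest WT library nearly touched. Its log2 fold change was 0.20 (SE 0.06, edgeR adjusted p = 0.0448). Uqcr11, another small subunit of the complex, had a like difference of 0.21 with overlapping libraries (edgeR adjusted p = 0.0681). The other 7 lay between -0.01 for the hinge protein Uqcrh and 0.10 for the core protein Uqcrc1, with Cyc1, the cytochrome c1 subunit, at 0.05. Cytochrome c itself (Cycs), the mobile carrier between complexes III and IV, was at -0.02 (edgeR adjusted p = 0.834).

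Complex IV reduces oxygen, and it held the one nuclear member that fell. Cox4i2 (chr2:152754173-152765037, plus strand) is the alternative form of the regulatory subunit Cox4i1 and is known to be induced by low oxygen in lung and other cells. Cox4i2 had 3.36, 3.12, 3.58, 2.17 and 3.13 CPM in KO 1 to KO 5, against 11.8, 12.0, 7.24, 6.31 and 7.33 CPM in WT 1 to WT 5. Every KO library lay below every WT library, and WT 1 and WT 2 stood above the other WT libraries. It was 2.90-fold lower in KO, with a log2 fold change of -1.53 (SE 0.20, edgeR adjusted p = 0.000522), and it was called under all 23 alternatives run (-1.64 to -1.41).

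Cox4i1, the form used in most tissues and the nuclear member with the highest level per length (287 CPM per kb of its principal transcript), did not change detectably: it had 233, 236, 217, 226 and 236 CPM in KO 1 to KO 5, against 241, 209, 193, 202 and 207 CPM in WT 1 to WT 5. Its log2 fold change was 0.13 (edgeR adjusted p = 0.196). Per length, Cox4i2 amounted to 1.40 ± 0.26% of Cox4i1 in KO and 4.40 ± 1.12% in WT libraries (ranges 1.00 to 1.72% and 3.26 to 5.99%). The alternative form was thus a minor one in both genotypes.

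A second pair of forms also shifted away from its oxygen-regulated member. Ndufa4 (chr6:11900292-11907497, minus strand) was first named as a complex I subunit and is known as a subunit of complex IV. It had 97.5, 87.2, 83.1, 82.6 and 113 CPM in KO 1 to KO 5, against 77.2, 77.1, 72.5, 76.2 and 68.4 CPM in WT 1 to WT 5, with no overlap and with KO 5 highest. Its log2 fold change was 0.32 (SE 0.08, edgeR adjusted p = 0.0259). Its paralogue Ndufa4l2, which is induced by hypoxia-inducible factor (HIF) in other cells and is no member, fell by 1.91 on the log2 scale (SE 0.15, edgeR adjusted p = 1.3e-05). Per length, Ndufa4l2 amounted to 9.41 to 13.5% of Ndufa4 in KO libraries and to 41.0 to 75.5% in WT libraries, with means of 11.7 ± 1.85% and 54.1 ± 12.9%. The ratios of Cox4i2 to Cox4i1 and of Ndufa4l2 to Ndufa4 were not tested on their own. All of these genes but Cox4i1 were themselves called.

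**Figure D2:**
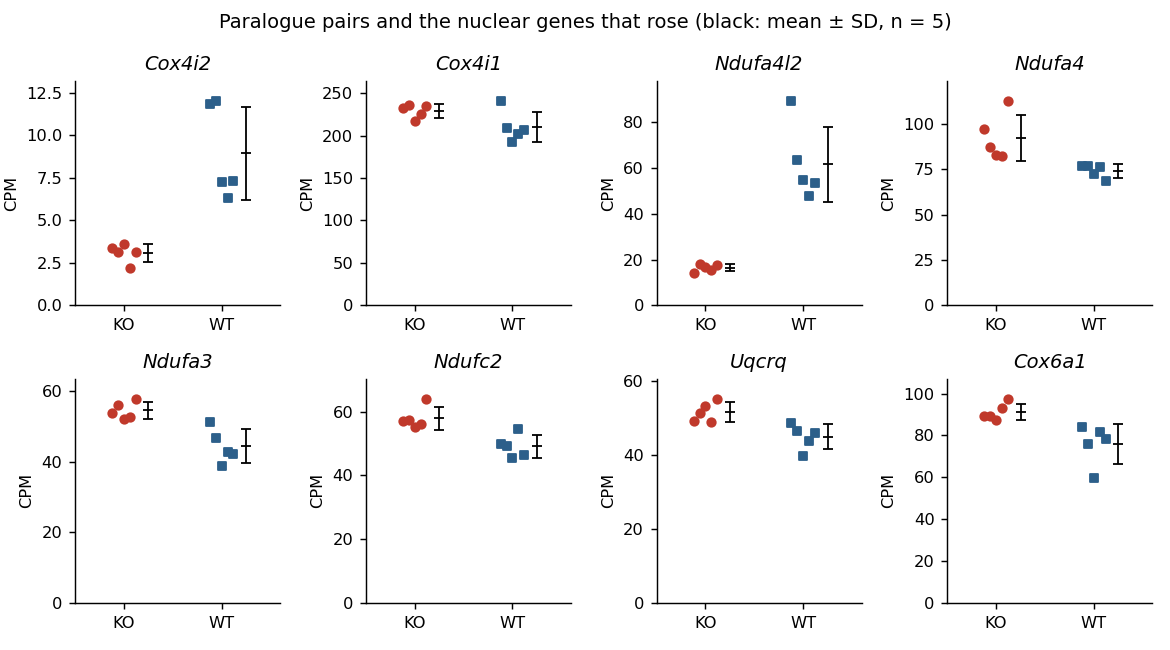
Levels in CPM (y axes, each from 0) of Cox4i2, Cox4i1, Ndufa4l2, Ndufa4, Ndufa3, Ndufc2, Uqcrq and Cox6a1 in single libraries, KO left and WT right, with the mean and SD in black. The KO points of Cox4i2 and Ndufa4l2 lie far below the WT points, those of the 5 genes that rose lie just above them, and those of Cox4i1 overlap.

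Cox6a1 (chr5:115345642-115348981, minus strand), the general form of subunit 6a, had 89.0, 89.5, 87.5, 93.1 and 97.3 CPM in KO 1 to KO 5, against 84.2, 76.0, 59.8, 81.8 and 78.3 CPM in WT 1 to WT 5. All KO libraries lay above all WT libraries, and WT 3 was the lowest of all. The log2 fold change of 0.26 (SE 0.08) only just passed, with an edgeR adjusted p of 0.0498. In all, 2 of 15 tested nuclear members of complex IV rose, 1 fell and 12 were not called, with a median of 0.13.

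The other tissue forms gave no call. Cox6a2, Cox7b2 and Cox8b, forms known from muscle or testis, stayed under the filter with highest levels of 0.168, 0.0545 and 0.13 CPM, and Cox8c, a testis form, had no count in any library. Cox6b2, a testis form of subunit 6b, was at 2.00 ± 0.383 CPM in KO and 2.55 ± 0.267 CPM in WT libraries (log2 fold change -0.35, edgeR adjusted p = 0.143), and the common form Cox6b1 was at 0.15 on the log2 scale (edgeR adjusted p = 0.115). Cox7a1, the muscle form of subunit 7a, was at 1.13 ± 0.173 CPM in KO and 0.846 ± 0.215 CPM in WT libraries, the highest fold change of any nuclear member at 0.41 but with an edgeR adjusted p of 0.171. Its common form Cox7a2 was at -0.04, the related Cox7a2l at -0.08, and Cox8a at 0.10, none of them called.

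Complex V is the ATP synthase, and none of its 18 tested nuclear genes was called by edgeR, DESeq2 or limma (1 higher and 0 lower at unadjusted p under 0.05 in edgeR). Their median was 0.07, and they ran from -0.11 for Atp5s, a coupling factor, to 0.19 for Atp5e, the epsilon subunit of the central stalk (edgeR adjusted p = 0.123). The 3 genes that encode the same proton-carrying c subunit, Atp5g1, Atp5g2 and Atp5g3, lay at 0.14, 0.09 and 0.08. The table lists Atp5o under 2 identifiers, the gene itself and a read-through with Donson (ENSMUSG00000116933) that shares sequence with it, and their values of 0.08 and 0.07 are not independent.

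The 5 calls upward depended on which libraries were used. When KO was represented by KO 3 and KO 4 alone, the pools lowest in epithelial markers, edgeR called 0 members higher (5 nuclear members higher and 6 lower at unadjusted p under 0.05), and with the mean epithelial marker level as a covariate it again called 0 (5 higher and 8 lower at unadjusted p under 0.05). The median of the nuclear members was 0.02 in both fits, which called 5.99% and 6.68% of all tested genes in either direction, against 15.3% with all libraries and no covariate. Of 23 alternatives in all, Ndufa3 was called in 21, Ndufa4 and Ndufc2 in 17 each, Uqcrq in 9 and Cox6a1 in 5. All 5 were higher in KO under every alternative, their lowest log2 fold changes being 0.24 for Ndufa3, 0.18 for Ndufc2, 0.16 for Ndufa4, 0.16 for Uqcrq and 0.19 for Cox6a1.

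The nuclear genes moved together from pool to pool. Their summed level was 6507, 6537, 6328, 6426 and 7236 CPM in KO 1 to KO 5, against 7066, 6209, 5883, 6164 and 6203 CPM in WT 1 to WT 5. KO 5 was the highest KO library for 76 of the 83 tested genes and WT 1 the highest WT library for 73. Without WT 1, edgeR called 13 members higher and the nuclear median was 0.12, and without KO 5 it called 3 and the median was 0.03. Over all tested genes, 1428 of 17976 were higher without WT 1 and 1135 of 17905 without KO 5. The same libraries were highest for the cytosolic ribosomal proteins, whose sum was 28345 CPM in KO 5 and 28867 CPM in WT 1, within ranges of 23557 to 28345 CPM in KO and 21726 to 28867 CPM in WT libraries. None of 81 ribosomal protein genes was called by edgeR, DESeq2 or limma (1 higher and 0 lower at unadjusted p under 0.05 in edgeR), and their median log2 fold change of 0.07 was close to that of the nuclear members.

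**Figure D3:**
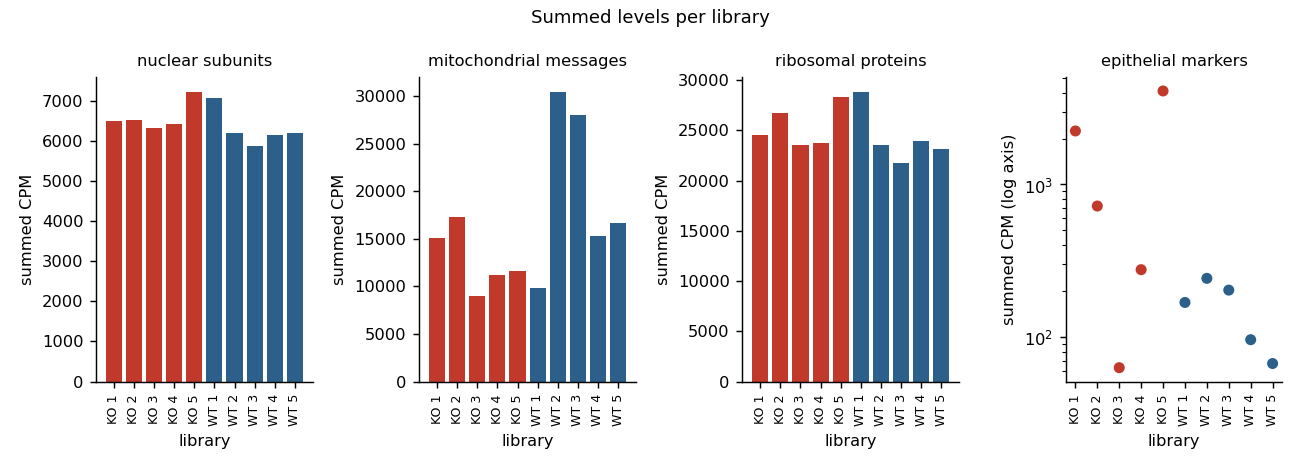
Summed CPM in each library (x axis, KO red and left, WT blue and right) of the nuclear members, the mitochondrial messages, the cytosolic ribosomal proteins and, on a log axis, the epithelial markers. KO 5 and WT 1 are highest for nuclear members and ribosomal proteins, WT 2 and WT 3 for mitochondrial messages, and KO 1 and KO 5 for epithelial markers.

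The 13 mitochondrial messages encode core subunits: 7 of complex I, cytochrome b of complex III, the 3 catalytic subunits of complex IV and 2 membrane subunits of complex V. Their counts carry a limit that the nuclear ones mostly lack. A stretch of nuclear chromosome 1 holds near-identical copies of part of the mitochondrial genome, annotated as pseudogenes, and these rows of the table had large counts. Gm28437 (chr1:24613189-24613971), which holds 99.9% of the 75-base words of mt-Co3, had 99.6 to 102% of the counts of mt-Co3 in each library, and Gm28661, with 99.5% of the words of mt-Co2, had 98 to 101% of its counts. The copies of mt-Atp6 (115 to 119%), mt-Nd3 (102 to 105%) and mt-Nd4l (96.6 to 103%) had counts close to those of their messages, and the copies of parts of mt-Co1 (21.7 to 28.1%) and mt-Nd4 (29.9 to 38.1%) had fewer. Reads of a message and of its copy cannot be told apart in the table, so the levels of these 7 messages are uncertain. No words of mt-Nd1, mt-Cytb, mt-Nd6 or mt-Atp8 were found in annotated transcripts of another gene, and mt-Nd2 shared 5.71% of its words with one. Sequence outside annotated transcripts was not searched. The copies of mt-Co2 (chr1:24614885-24615565) and mt-Atp6 (chr1:24613974-24614651) leave a gap, and mt-Atp8 lies between these messages in the mitochondrial genome. The level of mt-Atp8 may therefore be uncertain as well.

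Adding the counts of 10 such pseudogenes to their messages left every mitochondrial call as it was, with a median log2 fold change of -0.72 again. This could hardly differ, since the copies of mt-Co2, mt-Co3, mt-Atp6, mt-Nd3 and mt-Nd4l kept a near-constant ratio to their messages. The addition therefore cannot show which reads came from the copies. Fold changes are given from the counts as deposited. Per length, the median level of the 13 was 1667 CPM per kb as deposited and 1914 CPM per kb with the copies added, against 65.3 CPM per kb for the tested nuclear members. The highest was mt-Atp6 at 2607 CPM per kb. Their sum was 15051, 17305, 8992, 11220 and 11629 CPM in KO 1 to KO 5, against 9775, 30459, 27956, 15251 and 16614 CPM in WT 1 to WT 5. WT 2 and WT 3 were far above all other libraries, while WT 1, WT 4 and WT 5 lay within the KO range. As a share of all counts this was 0.929 to 1.67% in KO and 0.944 to 3.14% in WT libraries, and per nuclear respiratory chain count it was 1.42 to 2.65 in KO and 1.38 to 4.91 in WT libraries.

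Only mt-Co3 (M:8607-9390, plus strand), the third subunit of cytochrome c oxidase, fell. It had 1621, 2009, 938, 1114 and 1225 CPM in KO 1 to KO 5, against 1989, 2605, 2473, 2227 and 2071 CPM in WT 1 to WT 5. KO 2 was above WT 1, so the groups overlapped by that pair, and the WT libraries lay closer together than for most other messages. The log2 fold change was -0.72 (SE 0.18, edgeR adjusted p = 0.0195), and it was called under all 23 alternatives (-1.14 to -0.61). For mt-Atp6, the proton-channel subunit whose message adjoins mt-Co3, the difference was -0.47 (edgeR adjusted p = 0.194), and for mt-Atp8, a small subunit that overlaps mt-Atp6 by 43 bases, it was -0.51 (edgeR adjusted p = 0.179). Both were called lower without KO 2 (-0.68 and -0.75) and with KO 3 and KO 4 as sole KO pools (-1.09 and -1.17), and with the epithelial covariate mt-Atp6 was called (-0.90) while mt-Atp8 was at -0.94 (edgeR adjusted p = 0.056).

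mt-Co1, the catalytic core of the oxidase, had 2250, 2492, 1458, 1827 and 1871 CPM in KO 1 to KO 5, against 1232, 6844, 6150, 2585 and 3224 CPM in WT 1 to WT 5. Of the WT libraries 4 were above every KO library, and WT 1 was below all of them. Its log2 fold change of -1.02 (SE 0.37) did not pass, with an edgeR adjusted p of 0.0822. mt-Co2, which receives electrons from cytochrome c, was at -0.77 (edgeR adjusted p = 0.113).

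mt-Cytb, cytochrome b, followed the same order of libraries within each genotype, with 1789, 2067, 1132, 1455 and 1517 CPM in KO 1 to KO 5 and 945, 4786, 4176, 1853 and 2180 CPM in WT 1 to WT 5. Its log2 fold change was -0.81 (edgeR adjusted p = 0.144). The groups overlapped because KO 2 stood above WT 4 and WT 1 lay below every KO library.

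The 7 complex I messages ran from -1.55 to -0.08 and none passed in edgeR, DESeq2 or limma, with 3 lower and 0 higher at unadjusted p under 0.05 in edgeR. mt-Nd6, the one message of the light-strand side, was rarely counted in these poly(A)-selected libraries, with 24 to 338 counts in each. It had 1.05, 1.22, 0.891, 1.29 and 1.47 CPM in KO 1 to KO 5, against 0.654, 7.56, 6.17, 1.53 and 1.46 CPM in WT 1 to WT 5. WT 2 and WT 3 alone were high, and the log2 fold change was -1.55 (SE 0.56, edgeR adjusted p = 0.0789). mt-Nd6 shares 14 bases with mt-Nd5 on the other strand. For mt-Nd5, mt-Nd4l and mt-Nd4 the log2 fold changes were -0.96, -0.88 and -0.69 (edgeR adjusted p = 0.106, 0.153 and 0.225), and for mt-Nd3 it was -0.08 (edgeR adjusted p = 0.702).

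**Figure D4:**
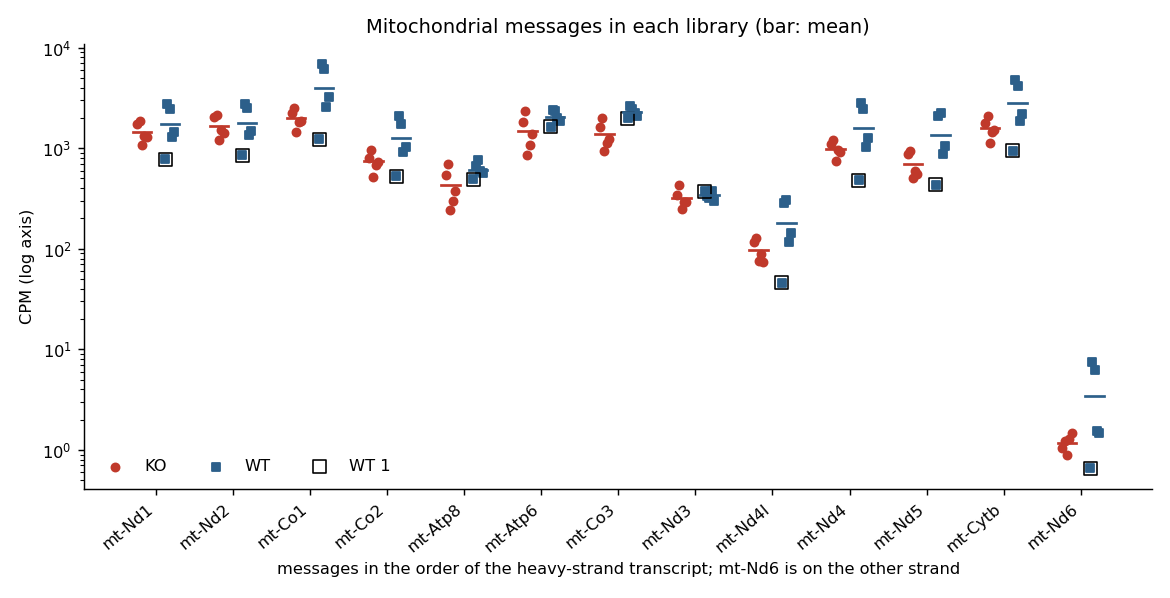
Levels in CPM (log axis) of the 13 mitochondrial messages (x axis, in genome order with mt-Nd6 last) in each library, KO as red circles left and WT as blue squares right, with a bar at the mean and a black frame around WT 1. WT 1 is the lowest WT library for 12 of 13 messages, and WT 2 and WT 3 lie highest for most.

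The number of messages that passed depended on which libraries were used and on the covariate. WT 1 was the lowest WT library for 12 of the 13 and KO 2 the highest KO library for 12. Without WT 1, edgeR called 8 mitochondrial messages lower (mt-Co1, mt-Co2, mt-Co3, mt-Cytb, mt-Nd4, mt-Nd4l, mt-Nd5 and mt-Nd6) at a median of -0.92, and without WT 2 the median was -0.50 with mt-Co3 alone called. Without KO 2 it called 3 (mt-Atp6, mt-Atp8 and mt-Co3), and with KO 3 and KO 4 alone the same 3, at medians of -0.88 and -1.10. With the epithelial covariate it called 2 (mt-Atp6 and mt-Co3, median -1.01), and with the keratocyte covariate 3 (mt-Co1, mt-Co3 and mt-Nd6, median -0.71). Over all tested genes, 1666 of 17976 were lower without WT 1, 1061 of 17893 without WT 2 and 1126 of 17919 without KO 2. With KO 3 and KO 4 alone 578 of 18435 were lower. The epithelial covariate gave 655 of 17729 lower, and the keratocyte covariate 1707 of 17729. WT 1 was also the WT library with the highest red blood cell marker sum (86.1 CPM), and the part of this in its low mitochondrial counts was not tested. The ribosomal RNAs of the mitochondrion, which this poly(A)-selecting kit captures only in part, overlapped widely, mt-Rnr1 at 201 to 370 CPM in KO and 215 to 406 CPM in WT libraries.

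The makeup of the mitochondrial messages separated the genotypes where their sum did not. mt-Nd1 and mt-Nd2, the first messages after the ribosomal RNAs, together made up 25.1, 23.3, 25.3, 25.3 and 23.2% of the counts of the 13 in KO 1 to KO 5, against 16.6, 18.1, 17.8, 17.5 and 17.7% in WT 1 to WT 5. The groups did not overlap, and the WT shares differed little although their summed levels differed 3.12-fold. mt-Nd1 alone made up 11.4 ± 0.46% in KO and 8.61 ± 0.43% in WT libraries, and mt-Nd2 alone 13.03 ± 0.66% and 8.92 ± 0.12%. In CPM neither gene was called, with log2 fold changes of -0.27 for mt-Nd1 (edgeR adjusted p = 0.572) and -0.10 for mt-Nd2 (edgeR adjusted p = 0.839).

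This pattern was noticed after the values were seen and has no test. With the pseudogene counts added, the joint share was 16.3 to 18.3% in KO and 10.8 to 13.2% in WT libraries, again without overlap. Set against mt-Cytb, which shares no words with another gene, mt-Nd2 gave a count ratio of 1.05 ± 0.08 in KO and 0.70 ± 0.13 in WT libraries (0.932 to 1.14 and 0.576 to 0.902), and mt-Nd1 gave 0.91 ± 0.05 and 0.67 ± 0.10 (0.845 to 0.965 and 0.574 to 0.817). For mt-Nd5 against mt-Cytb the ranges overlapped, at 0.363 to 0.486 in KO and 0.441 to 0.538 in WT libraries. The block of mt-Atp8, mt-Atp6 and mt-Co3 varied most in percentage points, from 22.1 to 29.1% in KO and from 18.7 to 42.1% in WT libraries, with WT 1 highest. A share is not a level: a rise of one message lowers the share of the others.

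**Figure D5:**
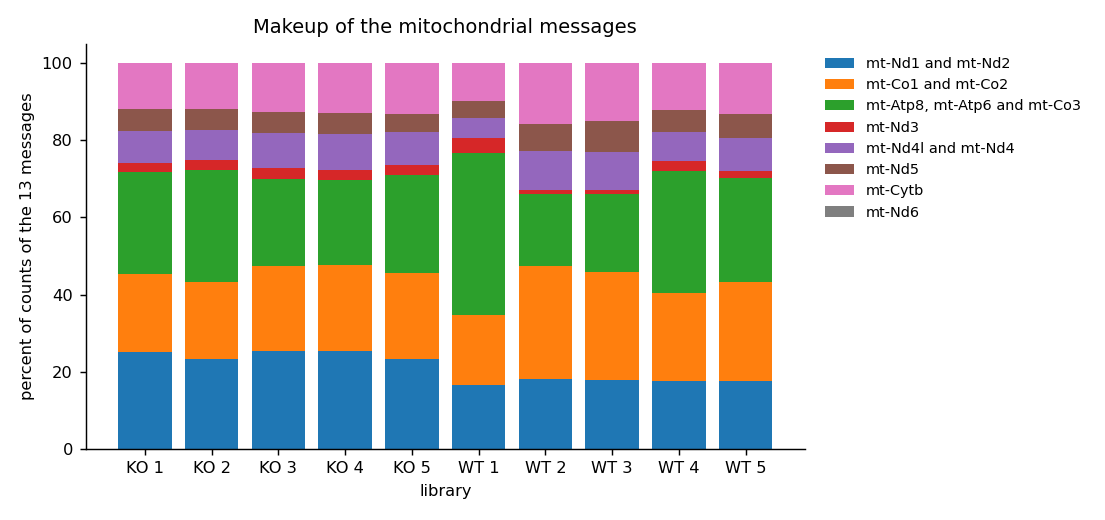
Percent of the counts of the 13 mitochondrial messages (y axis) taken by each gene or neighbouring block, stacked for each library, KO left and WT right. The mt-Nd1 and mt-Nd2 block at the base takes 23.2 to 25.3% in KO and 16.6 to 18.1% in WT libraries, and WT 1 stands out by its wide mt-Atp8, mt-Atp6 and mt-Co3 block.

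Genes that build or control the chain were followed in lists chosen alongside the members. Of 18 complex I assembly factors, 1 rose in edgeR, the inner membrane protein Tmem126b (log2 fold change 0.18, edgeR adjusted p = 0.0459), and 0 fell, with a median of 0.05. DESeq2 called 2 of them higher and 1 lower, and limma called 0. At unadjusted p under 0.05 in edgeR, 4 were higher and 1 was lower. None of 4 complex II and 5 complex V assembly factors was called by edgeR, DESeq2 or limma (0 and 1 of them at unadjusted p under 0.05). Of 6 for complex III, 0 rose (1 higher at unadjusted p under 0.05 in edgeR and 1 in DESeq2) and 2 fell, Ttc19 by 0.32 (edgeR adjusted p = 0.0081) and Lyrm7, a chaperone of the Rieske iron-sulfur protein, by 0.35 (edgeR adjusted p = 0.0366), with a median of -0.03. Of 25 for complex IV, 2 rose and 1 fell, with a median of 0.03. These were Higd2a, a complex IV assembly factor, at 0.27 (edgeR adjusted p = 0.0123), Cox16 at 0.23 (edgeR adjusted p = 0.0454), and Higd1a at -0.74 (edgeR adjusted p = 0.000372). Tmem126b and Cox16 were each called in 8 of the 23 alternatives and Lyrm7 in 12, and none of these 3 was called with KO 3 and KO 4 alone or with the epithelial covariate. Higd2a was called in 21, all but those 2, while Ttc19 and Higd1a were called in all 23. In all these lists over 80% of members were not called, except complex III with 4 of 6. Of all tested genes, 7.59% rose and 7.73% fell in edgeR.

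Higd1a and Cox4i2 also belong to a short list of respiratory chain switches known as targets of HIF. In this list 5 of 6 genes fell, against 7.73% of all tested genes. Its median log2 fold change was -1.19, against 0.00 over all tested genes. This list was chosen with earlier results of these libraries known, so its direction is a description. Bnip3, a mitophagy receptor, had 36.1, 31.3, 40.8, 32.9 and 42.9 CPM in KO 1 to KO 5, against 115, 120, 110, 85.7 and 100 CPM in WT 1 to WT 5. Pdk1, the kinase that closes pyruvate dehydrogenase, was at 81.4 ± 4.15 CPM in KO and 146.4 ± 14.5 CPM in WT libraries. Higd1a, a small protein that acts on complex IV, was at 46.9 ± 3.72 CPM in KO and 78.5 ± 11.1 CPM in WT libraries. Each KO library lay below each WT library for all 5 genes that fell, against 6.16% of all tested genes. Since these 5 were already called lower, this adds no separate evidence. The edgeR log2 fold changes were -1.53 for Bnip3 (adjusted p = 7.8e-06) and -0.85 for Pdk1 (adjusted p = 2.14e-05), and both genes were called under all 23 alternatives. Lonp1, the protease that removes the Cox4i1 protein under low oxygen in other cells, was not called.

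Of 10 nuclear regulators of these genes, 2 fell and 0 rose in edgeR, DESeq2 and limma alike (0 higher at unadjusted p under 0.05), at a median of -0.04. In edgeR 7.73% of all tested genes fell. Pprc1, a coactivator of the PGC-1 family, was at 16.8 ± 2.62 CPM in KO and 23.2 ± 2.55 CPM in WT libraries (log2 fold change -0.47, edgeR adjusted p = 0.0125), and the nuclear receptor Esrrg was at 2.42 ± 0.50 CPM in KO and 3.86 ± 0.70 CPM in WT libraries (log2 fold change -0.67, edgeR adjusted p = 0.0229). None of 29 genes for mitochondrial DNA transcription, replication and RNA handling was called by edgeR or limma, at a median of 0.00, while DESeq2 called 1 higher and 2 were higher at unadjusted p under 0.05 in edgeR. None of 19 markers of mitochondrial mass was called by edgeR or limma (2 higher and 2 lower at unadjusted p under 0.05), DESeq2 called 2 lower, and their summed level was 2662 to 2985 CPM in KO and 2612 to 2974 CPM in WT libraries. Mitochondrial ribosomal proteins, which translate the 13 messages, had 9 of 78 genes that rose (11.5%, against 7.59% of all tested genes) and 0 that fell, with a median of 0.10. Mrps12 was at 14.8 ± 0.58 CPM in KO and 11.5 ± 1.18 CPM in WT libraries (log2 fold change 0.36, edgeR adjusted p = 0.00816), and Mrpl24 was at 42.9 ± 4.03 CPM in KO and 35.7 ± 1.37 CPM in WT libraries (log2 fold change 0.26, edgeR adjusted p = 0.0181). Epithelial markers were highest in KO 1, KO 2 and KO 5, and edgeR called none of Pprc1, Esrrg, Mrps12 and Mrpl24 with KO 3 and KO 4 alone (-0.31, -0.80, 0.37 and 0.20) or with the epithelial covariate (-0.35, -0.70, 0.33 and 0.17). These fits called 5.99% and 6.68% of all tested genes, against 15.3% in the main fit. With KO 3 and KO 4 alone the SE was wider, at 0.24 against 0.17 for Esrrg and 0.11 against 0.08 for Mrps12. The part of epithelial cells in the lost calls was not tested.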

How the data were processed

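Poly(A) RNA from pooled peelings (100 ng of RNA, 12 PCR cycles) was sequenced as pairs with a stranded kit, per the labels' protocols. The deposited table holds raw counts per gene that the authors made with Trim Galore 0.6.4, cutadapt 2.4, HISAT2 2.1.0 and featureCounts (Subread 1.6.4) on GRCm38.p6, per the submitters' processing notes. The strand setting, the multi-mapping rule and the annotation release were not given in the sources used here. All gene IDs matched GENCODE M21, from which symbols, coordinates and lengths come. The KO and WT libraries were compared with edgeR 4.0.16 in R 4.3.3: filterByExpr (minimum count 10), TMM, and the quasi-likelihood F test, adjusted by Benjamini-Hochberg over all 17729 tested genes and called at 0.05. Nothing says that pools come from separate litters, so p-values measure the spread between pools. DESeq2 1.42.0, limma 3.58.1 and other alternatives are in the closing section. Named are the called members, the 13 mitochondrial messages, the highest and lowest members of each complex, the tissue forms and the called genes of related lists; other genes named as near the threshold, and Tfpt and the pseudogenes, were chosen after their values were seen. The members and lists were chosen with earlier results of these data known. Atp5if1 has no gene of that symbol in M21. The test was checked on simulated counts. No 2 libraries agreed within sampling noise. Counts were also searched for pseudogenes by 75-base words of member transcripts in M21; of 87 nuclear members, 18 share 20% of words or more with another gene, and Ndufa3, Ndufc2, Ndufa4, Uqcrq and Cox4i2 share none.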

Additional observations from a re-analysis of the deposited data

Results flagged for a closer look

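Of 112 groups of 5 libraries looked at, 7 had 1 library far from the other 4, a gap that chance alone gives in about 1 in 20 groups. KO 5 was high for Cox7a2, at 106.7 CPM against 89.8 to 92.3 CPM in the other KO libraries, and for Ndufc2, at 63.9 CPM against 55.1 to 57.4 CPM. It was also high for the sum of the nuclear members, at 7236 CPM against 6328 to 6537 CPM. WT 1 was high for Sdhb, at 77.6 CPM against 60.9 to 62.1 CPM in the other WT libraries, for Uqcr11, at 60.9 CPM against 49.3 to 52.3 CPM, and for the sum of the nuclear members, at 7066 CPM against 5883 to 6209 CPM. KO 3 was high for Pprc1, at 21.3 CPM against 14.5 to 16.3 CPM in the other KO libraries.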

How the results depend on the processing

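The medians of both genomes moved by less than their spread between libraries under every alternative, and Cox4i2 and mt-Co3 were called in all 23. Counts of members moved more. The number that rose (5) was 3 with upper quartile factors or with no filter, 8 with DESeq2, 0 with KO 1, KO 2 and KO 5 left out, 0 with the epithelial covariate and 0 at an adjusted p under 0.01. The number that fell (2) was 4 with KO 1, KO 2 and KO 5 left out, 4 with the keratocyte covariate and 1 at an adjusted p under 0.01. Leaving out 1 library gave 1 to 13 that rose (13 without WT 1, 1 without WT 3 or WT 5, 2 without WT 2 or KO 1, 3 without any other) and 2 to 9 that fell (9 without WT 1, 4 without KO 2). Replicate numbers did not pair the samples: deviations of same-numbered libraries correlated at -0.42 to 0.09, and 0 KO libraries correlated best with their own number. With the replicate number as a block, 1 member rose. The share of all tested genes called in either direction also moved. It was 15.3% in the main fit, 20.2% with DESeq2, 17.2% without WT 1, 9.54% with the block and 7.85% with no filter.

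Small log2 fold changes turned direction: Uqcrh (0.0035 with upper quartile factors, 0.0013 with the keratocyte covariate, 0.019 with total counts), Cycs (0.0036 with total counts), Cox8a (-0.0032), Cyc1 (-0.040) and Sdhd (-0.056) with KO 3 and KO 4 only, and Cyc1 (-0.035) and Sdhd (-0.049) with the epithelial covariate. Without 1 library, Cycs ran from -0.067 to 0.0060, Uqcrh from -0.041 to 0.035, mt-Nd2 from -0.28 to 0.10 and Sdhd from -0.021 to 0.040. The cause was not tested. Of 1219 values of 53 named genes, 1078 kept direction and call, 98 lost and 21 gained the call, and 22 turned direction. Adding pseudogene counts, chosen after seeing the data, ended only the call of Cox6a1. Depth was not limiting, at a median of 2599 counts for a nuclear member. The 5 pools a group limit the precision.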
